A study of Anguilla anguilla with 11 samples.

Results

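The transcripts described here encode the proteins of the basement membrane, the sheet of matrix that underlies endothelium and surrounds mural cells in the European eel's rete mirabile, the countercurrent capillary bundle that feeds the swimbladder. Members were the rows of the transcript table whose name was a collagen IV chain (co4a), a laminin alpha, beta or gamma chain (lama, lamb, lamc), a nidogen (nid), perlecan (pgbm), tubulointerstitial nephritis antigen-like (tinal), SPARC (sprc) or agrin, or whose description held the words nidogen or laminin subunit. The rule found 81 of 45974 transcripts, with 23 names. Reads were present for 78 of the 81, and 3 had none in any library. The table holds predicted genes of a draft genome, each called a transcript, and several can carry the same name, as for nid1 (14), agrin (13) and pgbm (12). Whether transcripts of one name are separate genes or pieces of 1 gene was not tested, so reads of near-identical copies could have been split between them.

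Bulk RNA-seq was done on rete tissue of 6 silver eels, the stage before the spawning migration, and 5 yellow eels, the freshwater growth stage. All were wild Anguilla anguilla, female by the study's methods, from Lake Constance, and their retia had been flushed with heparinized saline to clear blood cells. The tissue label and the dissection notes give rete mirabile, while the notes on RNA extraction name gas gland. That is the swimbladder epithelium which the rete supplies, and the study describes it as clearly separate from the rete in eels. The label was followed here, since the study's methods also name rete mirabile as the source of the RNA. Which tissue it came from was not tested with the counts. Each library came from 1 eel, so spread between libraries holds the spread between animals and any difference between the sets of libraries. The library titles fall into 2 sets, FG1907 with 3 silver and 2 yellow eels and FG1835 with 3 silver and 3 yellow eels. The methods name 2 sequencing modes without saying which libraries each was used for, and what separates the sets was not tested.

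Basement membranes are built from a network of collagen IV, whose chains wind into triple helices, and a network of laminins, each a trimer of an alpha, a beta and a gamma chain. Nidogens bridge the networks, and perlecan and agrin are heparan sulfate proteoglycans that anchor there. In small vessels the main collagen IV is made of the alpha-1 and alpha-2 chains, and the endothelial laminins carry the alpha-4 or the alpha-5 chain.

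Counts assigned to transcripts summed to 9360429 to 12438185 per silver eel and 10555968 to 12096239 per yellow eel. A relative expression value is the count divided by a median-of-ratios size factor, and 39 members with 19 names had a mean above 50 over the 11 eels, the limit the study used. The other 42, of which 15 entered the test and 27 did not, had means of 0 to 48.8, including both transcripts each of co4a3, co4a6, lamb3 and sned1 (the last found through its description). Transcript lengths were not used, so levels are compared between eels and never between genes. Members together took 0.77 to 0.896% of the counts of silver eels and 0.845 to 1.09% of those of yellow eels. Endothelial markers were found for 9 of 10 names, with summed values of 32515 to 62782 in silver eels and 42657 to 58423 in yellow eels, and of red blood cell markers 3 of 8 names were found, with 23.8 to 470.4 in silver eels and 64.3 to 729.8 in yellow eels.

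No basement membrane transcript differed between silver and yellow eels at an adjusted p under 0.05. In edgeR's quasi-likelihood test 0 of 54 tested members passed, against 0% of the 23981 transcripts tested, and 0 members passed in DESeq2 (where 0.0637% of all transcripts did) or in limma. At an unadjusted p under 0.05 there were 4 members in edgeR (7.41% of those tested, against 2.15% of all transcripts), 6 of 78 in DESeq2 (7.69%, against 2.69%) and 4 in limma (7.41%, against 1.96%). Of the 4 in edgeR, nid2 (g17895), nid1 (g7076) and lamc3 (g3258) were lower in silver eels and agrin (g26955), a low transcript, was higher. Only nid2 (g17895) passed the study's cut-off of an unadjusted p under 0.01 in edgeR, a share of 1.85% against 0.413% of all transcripts. The count at an unadjusted p under 0.05 was 2 without silver eel 5 and 8 without yellow eel 4 or yellow eel 5. Since whole tissue was sequenced, fewer cells of a type and less RNA per cell cannot be told apart in any of these values.

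Differences below 0, which mean a lower value in silver eels, were seen for 42 of 54 members (77.8%), against 49.2% of all transcripts tested. The median log2 difference of silver minus yellow was -0.35 over the members and 0.0046 over all transcripts. By role, all 9 tested laminin alpha transcripts, all 6 gamma and all 9 perlecan transcripts had a difference below 0 over all eels. Some of these were above 0 in FG1907 alone, such as lama5 (g14033, 0.54), lamc1 (g3905, 1.2) and pgbm (g7473, 0.57). With the set as a term, lamc1 (g3905) was at 0.034. The 5 laminin beta transcripts had 4 below and 1 above, and the 15 nidogen transcripts had 10 below and 5 above. Transcripts of 1 name may be pieces of 1 gene, so these counts need not be independent. The 5 of collagen IV had 2 below and 3 above, but without silver eel 5 all 5 were below 0. The 3 above, co4a1 (g14783), co4a2 (g12003) and co4a6 (g935), had -0.11, -0.17 and -0.82 without that eel. All 3 tested agrin transcripts were above 0, but 2 of them, g28205 and g26955, were low, with means of 12.6 and 12.2. These passed the filter on low counts mainly through silver eels, which favours a difference above 0. The main agrin transcript (g18195) was at -0.0036 with the set as a term. No p was computed for these counts, because the members come from the same libraries.

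The share of members lower in silver eels was not the same in the library sets. In FG1907 alone 23 of 55 tested members (41.8%) were lower in silver eels, against 46.2% of all transcripts, and the median log2 difference was 0.17. Among the 39 members above 50 it was 21, a larger share than over all 55, so low transcripts brought the share down. In FG1835 alone 51 of 55 members were lower (92.7%), against 49.8% of all, and the median was -0.58. At an unadjusted p under 0.05 there were 5 of the 55 in FG1907 alone (9.09%, against 2.78% of all) and 19 of the 55 in FG1835 alone (34.5%, against 7.3% of all). The 5 in FG1907 include the low transcripts agrin (g28205) and agrin (g26955), which were higher in silver eels, by 1.97 and 2.86. Both passed the filter on low counts mainly through silver eels, so that share leans in part on the filter. Many of the 19 in FG1835 were nid1 or pgbm transcripts, which may be pieces of 1 gene, so they need not be independent. The main transcripts of lamb2, lamc3 and sprc were among the 19, and those of nid1 and pgbm were not. Of the 19, 5 had an unadjusted p under 0.01 (9.09% of the 55, against 1.82% of all), and 0 members passed an adjusted p of 0.05 in edgeR in either set. Of the 39 members above 50, 18 were lower in silver eels in both sets, 18 were higher in FG1907 and lower in FG1835, 3 were the reverse, and 0 were higher in both. The same split was not counted over all transcripts. In the test of the interaction of stage and set, 0 of 54 members passed an adjusted p of 0.05 in edgeR, where the smallest adjusted p of any transcript was 0.125, so a difference between the sets was not shown for any member. Unadjusted p values under 0.05 were reached by 5 members (9.26%, against 4.94% of all), each with a difference higher in FG1907 than in FG1835: co4a1 (g14783), lama5 (g31004), nid1 (g23490) and, among low transcripts, nid1 (g41689) and nid1 (g44830). With the set as a term in the model, 46 of 54 (85.2%) were below 0 in silver eels, against 46.1% of all transcripts, with 0 passing an adjusted p of 0.05 in edgeR and 5 under an unadjusted p of 0.05 (9.26%, against 4.06% of all).

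**Figure D1:**
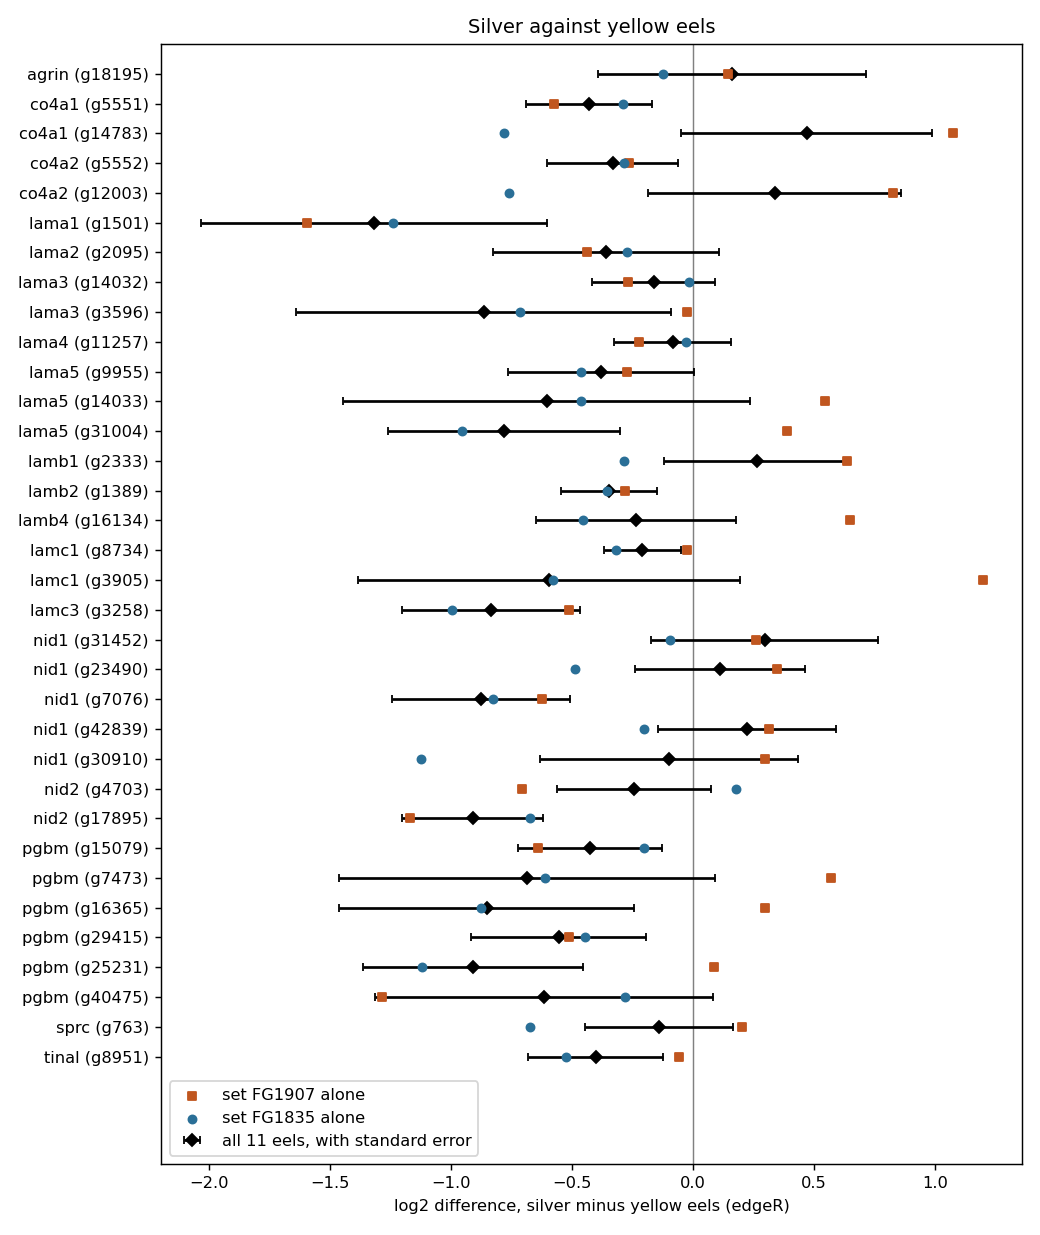
Log2 difference of silver minus yellow eels for 34 named basement membrane transcripts. Diamonds are the edgeR estimate over all 11 eels with its standard error, squares the estimate in set FG1907 alone and circles that in set FG1835 alone. 27 of the 34 diamonds lie left of 0, and for 16 of the 34 transcripts the square lies right of 0 while the circle lies left.

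Between the library sets, with stage in the model, many members differed. Called at an adjusted p under 0.05 in edgeR were 23 of 54 members (42.6%), close to the 38.6% of all transcripts that were called. Of these, 9 were higher in FG1907 (16.7% of the members, against 19.5% of all transcripts) and 14 were lower (25.9%, against 19% of all). The calls were also counted by rank within a name. Of the 19 transcripts with the highest count of their name, 6 were called, and of the 20 further transcripts above 50, 15 were. The same split was not counted over all transcripts, so whether it is particular to the members cannot be said. Without silver eel 1 or silver eel 2, 5 members were called higher in place of 9. Within silver eels alone 2 of 39 tested members were higher in FG1907 (5.13%, against 1.06% of all transcripts) and 1 was lower (2.56%, against 2.02%). Within yellow eels alone 3 of 44 were higher (6.82%, against 14.4%) and 9 were lower (20.5%, against 16.3%). With no overlap between the sets, 10 of 54 members were lower in FG1907 (18.5%, against 11.1% of all) and 4 higher (7.41%, against 10% of all). Among the 10, and among the 14 called lower, was the low transcript pgbm (g31934), with 3.48 to 9.39 in FG1907 and 17.3 to 59.9 in FG1835. It passed the filter on low counts mainly through FG1835 eels, which favours a lower value in FG1907. Markers of vessel cells differed between the sets as well. Of 16 tested endothelial marker transcripts 2 were called higher and 8 lower in FG1907, with a median log2 difference of -0.72, and their sum was 32515 to 62089 in FG1907 and 48307 to 62782 in FG1835. Of 14 mural cell marker transcripts 0 were called higher and 8 lower, with a median of -0.92, and their sum was 41480 to 111870 in FG1907 and 77207 to 96684 in FG1835. Their part in the set differences of the members was not tested.

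Collagen IV forms the network that gives the sheet its strength. The alpha-1 chain co4a1, by its highest transcript (g5551), had relative expression values of 4519.8 (lowest), 10172 (median) and 11802 (highest) in the silver eels, against 12493, 12191, 12396, 16799.6 and 8028 in the yellow eels. Yellow eels are given in the order of eels 1 to 5, here and for the other transcripts. Silver eel 5 was the lowest of all and yellow eel 4 the highest. Every silver eel lay below yellow eels 1 to 4, and yellow eel 5 lay within the silver range. Silver minus yellow was -0.43 on the log2 scale (edgeR, unadjusted p = 0.122), with -0.57 in FG1907 and -0.29 in FG1835. The alpha-2 chain co4a2 (g5552), which winds with alpha-1 and whose gene is the next one to col4a1 in RefSeq's annotation of the eel, had 2949.9 (lowest), 6314 (median) and 8446 (highest) in the silver eels, against 8951, 9678, 7791, 7888 and 4646 in the yellow eels. Silver eel 5 was again the lowest, and only silver eel 1 reached the values of yellow eels 1 to 4. Its log2 difference was -0.33 (unadjusted p = 0.239).

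Both chains had a further transcript that behaved differently. That of co4a1 (g14783) had 324 (lowest), 467 (median) and 2308 (highest) in the silver eels, against 921, 438, 469, 783 and 587 in the yellow eels. Silver eels 5 and 6 lay above every yellow eel, and the other silver eels lay at or below the middle of the yellow eels. That of co4a2 (g12003) had 499.6 (lowest), 1421 (median) and 4528 (highest) in the silver eels, against 2267, 859.8, 886, 2368 and 1011 in the yellow eels, with the same eels 5 and 6 highest. Between the sets their log2 differences of FG1907 minus FG1835 were 1.21 (adjusted p = 0.0491 in edgeR) for g14783 and 1.22 (adjusted p = 0.0476) for g12003, while the main transcripts had -0.17 and -0.50 and were not called. Both calls were lost when any one of silver eels 1, 2, 3, 5 and 6 or yellow eels 2, 3 and 4 was left out (adjusted p up to 0.129 for g14783 and 0.118 for g12003 in edgeR), and without silver eel 5 the differences were 0.82 and 0.89. The other collagen IV names were low: co4a3 had means of 0 and 0.091 over its 2 transcripts, and co4a6 (g935), chosen after its values were seen, averaged 39.0, with 217 in silver eel 5 and 2.35 to 51.9 in the other eels.

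Laminin alpha chains decide which receptors a laminin binds. The alpha-4 chain lama4 (g11257), typical of vessel walls, had 8258 (lowest), 10444 (median) and 15435 (highest) in the silver eels, against 7947, 8648, 10609.6, 14013 and 15197 in the yellow eels. Values of the stages overlapped almost wholly, but the sets did not, with 10846 to 15435 in FG1907 and 7947 to 10609.6 in FG1835. The log2 difference was -0.08 for silver minus yellow and 0.56 for FG1907 minus FG1835 (adjusted p = 0.0167 in edgeR). The alpha-5 chain lama5 (g9955), also made by endothelium, had 1442 (lowest), 7020.3 (median) and 10423 (highest) in the silver eels, against 9269, 12335, 6079, 10252 and 7069 in the yellow eels. Silver eel 5 lay far below the rest, and the remaining silver eels lay within the yellow range. Silver minus yellow was -0.38 on the log2 scale, and -0.17 without silver eel 5.

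Of the other alpha chains, lama3 (g14032), an epithelial chain in mammals, had 1369.6 (lowest), 3285 (median) and 4095 (highest) in the silver eels, against 4364, 2997, 3363, 3380.3 and 3102 in the yellow eels. Silver eel 6 was the lowest and yellow eel 1 the highest, with the rest close together. The chain lama2 (g2095), known from muscle and nerve, had 59 (lowest), 94.1 (median) and 164 (highest) in the silver eels, against 102, 174, 104, 23.8 and 254 in the yellow eels, and yellow eels 4 and 5 were its lowest and highest. The early embryonic chain lama1 (g1501) had 9.0 (lowest), 17.5 (median) and 94 (highest) in the silver eels, against 13.8, 61.5, 20.9, 192 and 100.2 in the yellow eels. Silver eels 1 to 5 and yellow eels 1 and 3 lay at or below 32.3, and silver eel 6 lay among the high yellow eels. Its log2 difference of silver minus yellow was -1.32 (unadjusted p = 0.0874 in edgeR, and 0.0111 with the set as a term), and of FG1907 minus FG1835 1.99 (adjusted p = 0.00684). The stage difference was -2.07 without silver eel 6 and -0.69 without yellow eel 4.

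Further alpha transcripts split by set. One of lama3 (g3596) had 326, 127 and 234 (silver eels) and 294 and 176 (yellow eels) in the FG1907 libraries, against 1376, 1843 and 1108 (silver eels) and 2455, 2989.9 and 1597 (yellow eels) in the FG1835 libraries. Every FG1907 eel lay below every FG1835 eel, in both stages. The log2 difference of FG1907 minus FG1835 was -2.96 (standard error 0.30, adjusted p = 9.62e-05 in edgeR), and it was called within silver eels and within yellow eels taken alone. One of lama5 (g14033) had 22, 61.5 and 11.8 (silver eels) and 23.8 and 21.3 (yellow eels) in the FG1907 libraries, against 267, 234 and 144 (silver eels) and 359, 217 and 305 (yellow eels) in the FG1835 libraries, again with no overlap, and a log2 difference of -3.14 (standard error 0.41). Another of the name, lama5 (g31004), differed by -1.4, with 21.9 to 52.1 in FG1907 and 55.8 to 146 in FG1835. The remaining lama3 transcript above 50 (g14031) was not called.

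Laminin beta and gamma chains complete the trimer. The beta-1 chain lamb1 (g2333) had 2719.8 (lowest), 4098 (median) and 13267 (highest) in the silver eels, against 4554, 3108, 5409, 3812 and 5353 in the yellow eels. Silver eel 6 stood alone at the top, and the other silver eels overlapped with the yellow eels. The log2 difference of silver minus yellow was 0.26 over all eels and -0.23 without silver eel 6, so its direction rests on that eel. The beta-2 chain lamb2 (g1389), found at vessels and synapses, had 2239.5 (lowest), 3834 (median) and 4572 (highest) in the silver eels, against 5162, 5101, 4353, 4657 and 3967 in the yellow eels. All silver eels but silver eel 4 lay below yellow eels 1 to 4. Its log2 difference was -0.35 (-0.28 in FG1907 and -0.35 in FG1835, unadjusted p = 0.102 in edgeR).

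The transcript lamb4 (g16134) is named for a beta chain with no well-defined role, and had 112 (lowest), 329 (median) and 401 (highest) in the silver eels, against 469, 367, 602, 121 and 199 in the yellow eels. Silver eel 4 and yellow eel 4, both of FG1907, were the lowest. FG1907 minus FG1835 was -0.96 on the log2 scale (adjusted p = 0.0424 in edgeR), a call lost when any one of silver eels 2, 3 and 4 or of the yellow eels was left out (adjusted p up to 0.119 in edgeR). The other lamb4 transcript above 50 (g1390) was not called. The 2 lamb3 transcripts, an epithelial chain in mammals, had means of 0.107 and 0.781.

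The gamma-1 chain lamc1 (g8734), the partner in most laminins, varied least between eels among the 39 members above 50. It had 1646 (lowest), 1885 (median) and 2014 (highest) in the silver eels, against 2363, 2182, 2175, 2054 and 1805 in the yellow eels, a coefficient of variation of 11.4% over the 11 eels. For comparison, the median coefficient of variation was 52.1% over the members above 50 and 35.7% over all 15070 transcripts above 50. All silver eels lay below yellow eels 1, 2, 3 and 4, and yellow eel 5 lay among the silver eels. Silver minus yellow was -0.21 on the log2 scale (standard error 0.16, unadjusted p = 0.213 in edgeR).

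The further transcript lamc1 (g3905) had 5.87 to 38.6 in FG1907 and 64 to 129 in FG1835, with no overlap, and FG1907 minus FG1835 was -2.68 on the log2 scale (adjusted p = 0.00203 in edgeR). The chain lamc3 (g3258) had 117 (lowest), 269.8 (median) and 375 (highest) in the silver eels, against 574, 303, 639, 503 and 221 in the yellow eels. Yellow eels 1, 3 and 4 lay above every silver eel, and yellow eels 2 and 5 lay within the silver range. Its log2 difference of silver minus yellow was -0.83 (standard error 0.37, unadjusted p = 0.0407, adjusted p = 1.0 in edgeR), with -0.51 in FG1907 and -1.0 in FG1835.

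**Figure D2:**
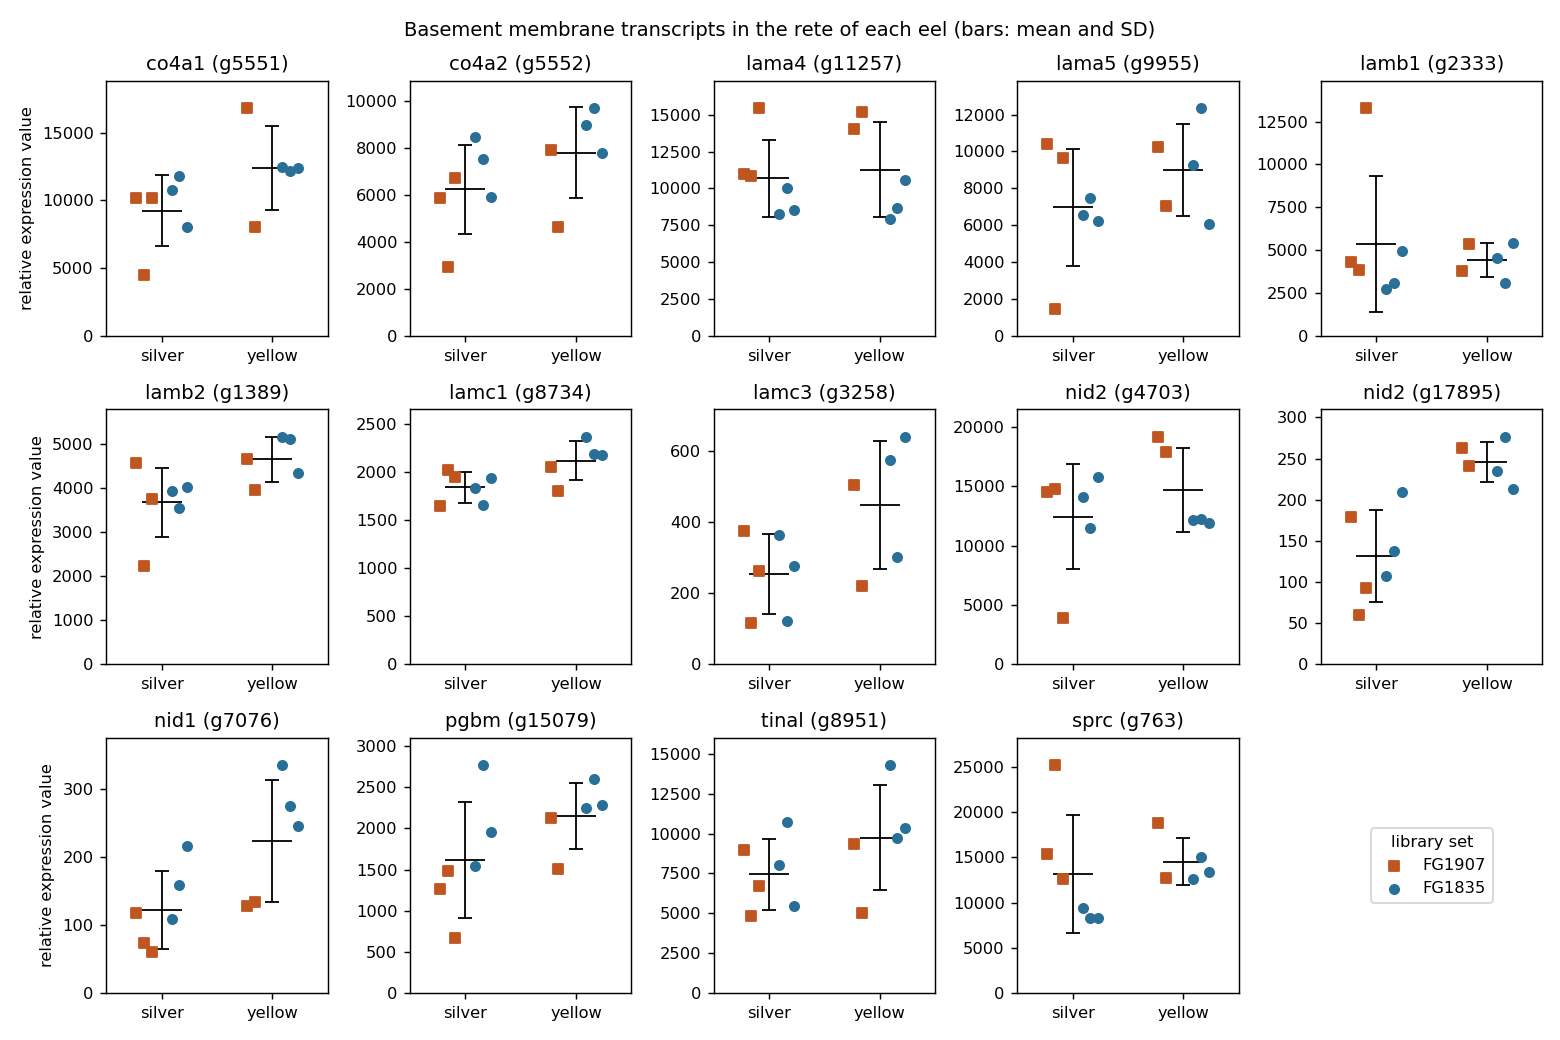
Relative expression value of 14 basement membrane transcripts in each eel, silver eels left of yellow eels in every panel. Squares are FG1907 libraries and circles FG1835 libraries, with the mean and SD of each stage as bars. Yellow eels lie above all silver eels for nid2 (g17895) only, and silver eels 5 and 6 stand apart from the other silver eels for several transcripts.

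Nidogens link laminin to collagen IV. The transcript with the highest count, nid2 (g4703), had 3910.3 (lowest), 14318 (median) and 15781 (highest) in the silver eels, against 12188, 12251, 11913, 19152 and 17905 in the yellow eels. Silver eel 6 stood far below every other eel, and the other silver eels lay between 11472 and 15781, inside the yellow range or just below it. Its log2 difference was -0.24 (-0.71 in FG1907 and 0.18 in FG1835), and -0.055 without silver eel 6. A second transcript of the name, nid2 (g17895), had 60.5 (lowest), 123 (median) and 210.0 (highest) in the silver eels, against 235, 276, 214, 264 and 241 in the yellow eels. It was the only member whose stages did not overlap, with 1 of 54 members lower without overlap, against 0.125% of all transcripts, and 0 higher, against 0.113%. The log2 difference was -0.91 (standard error 0.29, unadjusted p = 0.00785, adjusted p = 1.0 in edgeR), with -1.17 in FG1907, -0.67 in FG1835 and -0.77 without silver eel 5. Its unadjusted p was above 0.01 when any one of silver eels 2 and 5 or yellow eels 1, 2, 4 and 5 was left out.

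Nidogen-1 had 14 transcripts, 7 of them above 50, and they did not move together. The main one, nid1 (g31452), had 563, 342 and 890.4 (silver eels) and 579 and 422 (yellow eels) in the FG1907 libraries, against 183, 197 and 187 (silver eels) and 199, 197 and 205 (yellow eels) in the FG1835 libraries. The FG1835 values were nearly equal, at 195 ± 8.1 (mean ± SD, n = 6), and every FG1907 eel lay above them. FG1907 minus FG1835 was 1.5 on the log2 scale (standard error 0.22, adjusted p = 0.000477 in edgeR), and silver minus yellow was 0.30. Higher in FG1907 as well were nid1 (g23490) by 1.02, nid1 (g42839) by 1.1 and nid1 (g30910) by 1.28 on the log2 scale, while nid1 (g26137) and nid1 (g36412) were not called. The call of g30910 was lost without any one of silver eels 1, 2 and 6 or yellow eels 2 and 5 (adjusted p up to 0.0821 in edgeR).

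The transcript nid1 (g7076) went the other way between the sets, by -1.03 (adjusted p = 0.0049 in edgeR). It had 59.9 (lowest), 113 (median) and 217 (highest) in the silver eels, against 335, 275, 245, 128 and 134 in the yellow eels. The FG1835 yellow eels lay above all silver eels, and the FG1907 yellow eels lay within the silver range. The log2 difference of silver minus yellow was -0.88 (standard error 0.37, unadjusted p = 0.0326), and -0.75 with the set as a term (unadjusted p = 0.00584).

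Perlecan, which holds growth factors at the sheet, had 12 transcripts, of which 6 lay above 50. The main one, pgbm (g15079), had 673 (lowest), 1511 (median) and 2769 (highest) in the silver eels, against 2249.7, 2607, 2289.9, 2124 and 1513 in the yellow eels. Silver eel 6 was the lowest and silver eel 2 the highest of all, so the stages overlapped. The log2 difference of silver minus yellow was -0.43 (unadjusted p = 0.173 in edgeR), and of FG1907 minus FG1835 -0.66 (adjusted p = 0.0366 in edgeR).

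All 6 perlecan transcripts above 50 were called lower in FG1907, where 19% of all transcripts were. Besides g15079 these were g7473 with -2.67, g40475 with -2.2, g16365 with -2.0, g25231 with -1.11 and g29415 with -0.88 on the log2 scale. The call of g15079 was lost without any one of silver eels 2, 3, 4 and 6 or yellow eels 2, 3 and 5, that of g25231 without silver eel 2 or 6 or yellow eel 4 or 5, and that of g29415 without yellow eel 4 (adjusted p up to 0.101, 0.0979 and 0.0599 in edgeR). For pgbm (g7473) the values were 31.3, 136 and 23.5 (silver eels) and 49.8 and 39 (yellow eels) in the FG1907 libraries, against 232, 440.0 and 210.0 (silver eels) and 384, 506 and 442 (yellow eels) in the FG1835 libraries, and only silver eel 5 came near the FG1835 range. All 9 tested perlecan transcripts had lower values in silver eels over all eels, but among those above 50 the difference of g7473, g16365 and g25231 was above 0 in FG1907 alone (0.57, 0.30 and 0.09).

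Agrin, the second proteoglycan, had 13 transcripts and 1 of them above 50. That one, agrin (g18195), had 30.4 (lowest), 52.1 (median) and 168 (highest) in the silver eels, against 38.2, 85.1, 10, 70.1 and 108 in the yellow eels, with silver eel 6 far above the others. Its log2 difference was 0.16 and turned to -0.30 without silver eel 6. A low transcript, agrin (g26955), described after its values were seen, had 4.0 (lowest), 19 (median) and 29.4 (highest) in the silver eels, against 0, 4.21, 11.8, 1.13 and 4.64 in the yellow eels. Silver eel 1 and yellow eel 3 overlapped, and the other 5 silver eels lay above the yellow eels. The log2 difference was 2.04 (standard error 0.72, unadjusted p = 0.0142, adjusted p = 1.0 in edgeR). This transcript passed the filter on low counts mainly through silver eels, so its direction is not independent of that filter.

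The remaining names are proteins that bind the sheet. Tinal (g8951), a matrix protein of vessels, had 4840.0 (lowest), 7351 (median) and 10705 (highest) in the silver eels, against 14288, 9730.0, 10367, 9365 and 5009 in the yellow eels. Yellow eel 1 was the highest, silver eel 5 the lowest, and the groups overlapped, with a log2 difference of -0.40. SPARC, sprc (g763), a collagen-binding protein, had 8265 (lowest), 10978 (median) and 25215 (highest) in the silver eels, against 12641, 15055, 13416, 18815 and 12775 in the yellow eels. The FG1835 silver eels lay below every yellow eel, and silver eels 4 and 5 were among the highest. On the log2 scale silver minus yellow was -0.14 over all eels, 0.20 in FG1907 and -0.67 in FG1835, and FG1907 minus FG1835 was 0.67 (adjusted p = 0.0436 in edgeR), and 0.45 without silver eel 5. That call was lost without any one of silver eels 1 to 4 or yellow eels 1, 3 and 4 (adjusted p up to 0.11 in edgeR).

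**Figure D3:**
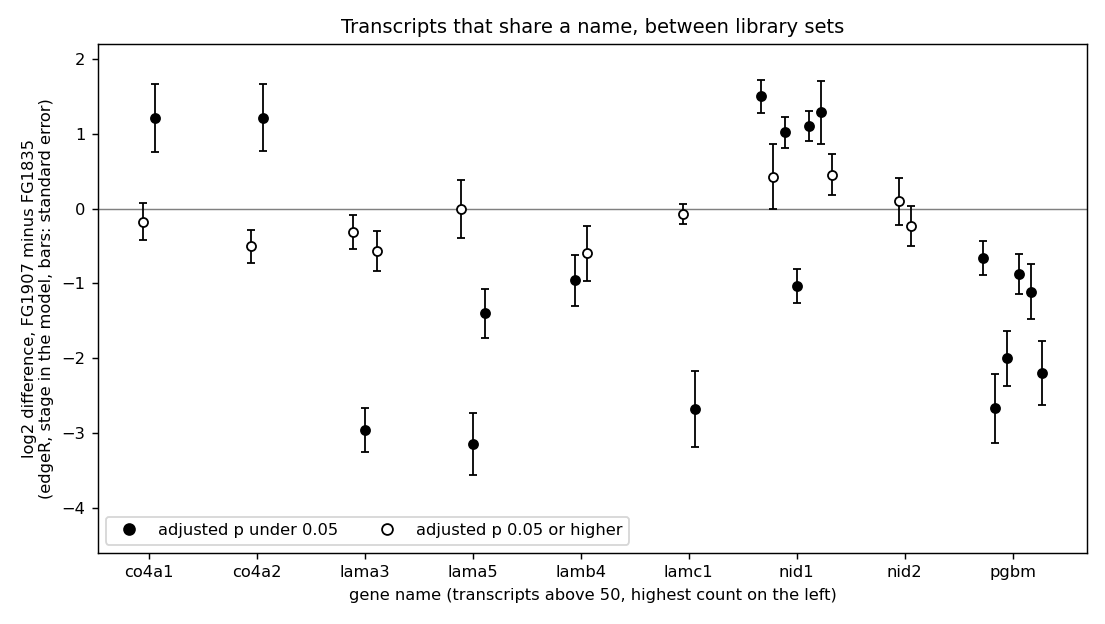
Log2 difference of FG1907 minus FG1835 for every transcript above 50 of the 9 names that have more than one, with its standard error from edgeR. Filled points passed an adjusted p of 0.05. The highest-count transcripts of co4a1, co4a2, lama3, lama5 and lamc1 are open points, while another transcript of the same name lies at 1.21, 1.22, -2.96, -3.14 or -2.68.

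Ratios of partner chains were compared within each library, where neither scaling nor transcript length enters the difference between groups. The co4a1/co4a2 ratio was 1.28 to 1.73 in the silver eels, against 1.26 to 2.13 in the yellow eels, and the lama4/lama5 ratio was 1.05 to 7.52 in the silver eels, against 0.701 to 2.15 in the yellow eels. The lamb1/lamb2 ratio was 0.693 to 3.54 in the silver eels, against 0.609 to 1.35 in the yellow eels. The nid1/nid2 ratio was 0.0119 to 0.228 in the silver eels, against 0.0161 to 0.0302 in the yellow eels. None of the 4 differed between the stages in a two-sided exact permutation test over the 462 arrangements, which can reach 0.00216 at the lowest (p = 0.485, 0.468, 0.357 and 0.66, adjusted over the 4 ratios 0.646, 0.646, 0.646 and 0.66). These arrangements do not keep the library set, so a difference between the sets adds to the spread against which the stages are compared.

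Between the sets 1 of the 4 ratios differed under both ways of permuting the eels, and another only when stage was not kept. The nid1/nid2 ratio was 0.0232 to 0.228 in FG1907, against 0.0119 to 0.0172 in FG1835, a mean difference of 1.51 on the log2 scale (exact permutation test, p = 0.00216, the smallest possible, adjusted p = 0.00866, and adjusted p = 0.02 with eels permuted within stages). All 5 FG1907 eels lay above all 6 FG1835 eels. The co4a1/co4a2 ratio was 1.51 to 2.13 in FG1907, against 1.26 to 1.59 in FG1835, a mean difference of 0.29 (exact permutation test, p = 0.0216, adjusted p = 0.0433). That test does not keep stage, and with eels permuted within stages the call was lost (exact permutation test, adjusted p = 0.06). Without silver eel 6 the nid1/nid2 difference was 0.90 (exact permutation test, adjusted p = 0.019). The co4a1/co4a2 call was lost without any one of silver eels 1, 3 and 4 or yellow eels 1, 2, 4 and 5 (exact permutation test, adjusted p of 0.0508 to 0.0952). Both rest on the choice of transcripts, since with all transcripts of a name summed the co4a1/co4a2 difference was 0.045 (exact permutation test, adjusted p = 0.786), and that of nid1/nid2 was 0.65 (exact permutation test, adjusted p = 0.395). The lama4/lama5 and lamb1/lamb2 ratios differed by 0.83 and 0.70 (exact permutation test, p = 0.106 and 0.0931, adjusted p = 0.106 for both).

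**Figure D4:**
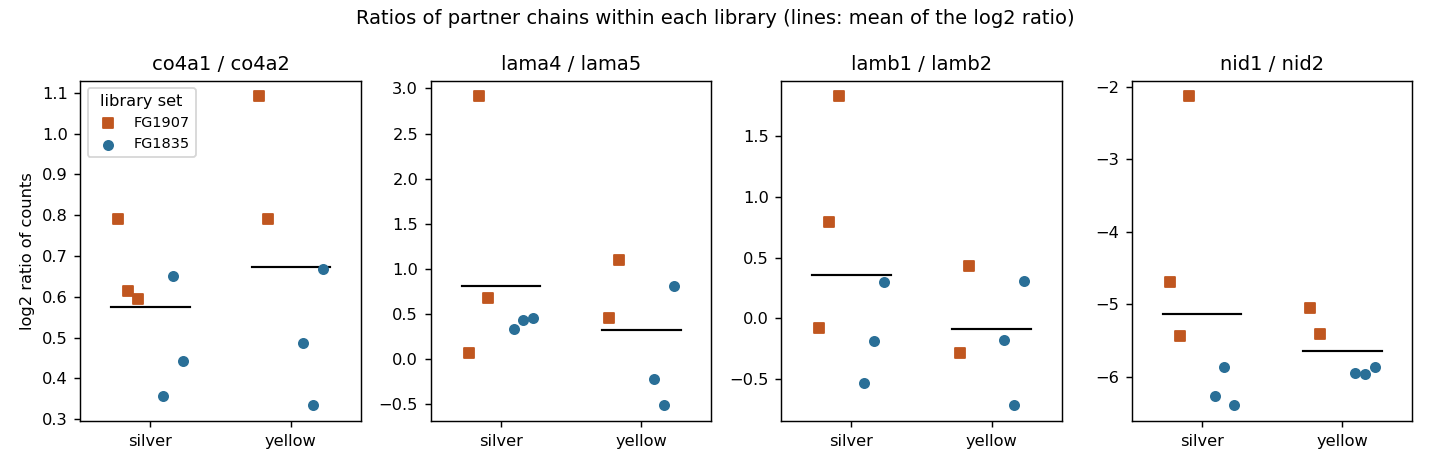
Log2 ratio of the counts of partner chains in each eel, silver eels left of yellow eels, with squares for FG1907 and circles for FG1835 libraries and a line at the mean of each stage. The FG1907 nid1/nid2 ratios all lie above the FG1835 ones, and silver eels 5 and 6 give the highest lama4/lama5 and the highest lamb1/lamb2 and nid1/nid2 ratios.

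Other genes of the sheet were counted from lists. Of assembly and cross-linking enzymes, such as the collagen chaperone serph and the lysyl hydroxylases plod1, plod2 and plod3, 25 of 26 names were found and 43 transcripts tested, of which 0 had an unadjusted p under 0.05 between the stages in edgeR, against 2.15% of all transcripts. Between the sets 11 of the 43 were called higher in FG1907 (25.6%, against 19.5% of all) and 12 lower (27.9%, against 19% of all). Of other basement membrane proteins, 17 of 23 names were found and 22 transcripts tested, with 0 called between the stages and 2 lower in silver eels at an unadjusted p under 0.05 (9.09%, against 2.15% of all in either direction). These were fras1 (g9250), which anchors epithelium to the matrix, and nephronectin, npnt (g17873), an integrin ligand. Fras1 had 8.2 (lowest), 278 (median) and 667 (highest) in the silver eels, against 623, 1892, 1539.9, 927 and 1940.0 in the yellow eels, and 1 yellow eel lay below the highest silver eel. Its log2 difference was -2.28 (standard error 0.72, unadjusted p = 0.00729, adjusted p = 1.0 in edgeR). That of npnt (g17873), a low transcript with a mean of 38.0, was -1.23 (unadjusted p = 0.0249 in edgeR). The npnt transcript with the highest mean (g5152, 46.4) had -0.52 (unadjusted p = 0.457 in edgeR), with 0.31 in FG1907 and -0.87 in FG1835.

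Of receptors, integrins, dystroglycan and discoidin receptors, 10 of 11 names were found and 26 transcripts tested, with 0 called between the stages and 1 at an unadjusted p under 0.05 (3.85%, against 2.15% of all in either direction), higher in silver eels. This was integrin beta-4, itb4 (g8186), which binds laminin in hemidesmosomes. It had 127 (lowest), 428 (median) and 1515 (highest) in the silver eels, against 198, 82.6, 104, 166 and 174 in the yellow eels. All silver eels but silver eel 2 lay above every yellow eel. The log2 difference was 2.24 (standard error 0.57, unadjusted p = 0.00171, adjusted p = 1.0 in edgeR), with 2.24 in FG1907 and 2.21 in FG1835. Epithelial markers (7 of 7 names found) summed to 19075 to 26018 in silver eels and 18239 to 25497 in yellow eels. The highest transcripts of the keratins k1c18 and k2c8 averaged 11708 and 4791 over the eels. Those of epcam, esrp1, cld3, cld4 and cadh1 averaged 3.2, 1.9, 1.0, 29.2 and 55.5. The part of epithelial cells in the values above was not tested.

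Silver eels 5 and 6, both of FG1907, stood apart in several members, and some of their summed cell markers did too. Of the 19 transcripts with the highest count of their name, silver eel 5 was the lowest of the 11 eels in 6 and the highest in 1, and silver eel 6 was the lowest in 3 and the highest in 4. Summed endothelial markers were 32515 in silver eel 5, the lowest value, and 62089 in silver eel 6. Summed mural cell markers (7 of 8 names found) were 111870 in silver eel 5 and 41480 in silver eel 6, the highest and the lowest of all eels, against 55900 to 104794 in yellow eels. Summed fibroblast markers (7 of 7 names found) were 48435 in silver eel 5 and 14429 in silver eel 6, again the highest and the lowest, against 24264 to 31389 in yellow eels. Of the mural sum in silver eel 5, the transcript rgs5 (g2442) gave 48165, while the other eels had 50.5 to 868.6. Single markers of that eel went both ways. The main rgs5 transcript (g3655) at 2137 and the fibroblast marker derm (g3582) at 98.1 were the lowest of all eels, while the fibroblast marker lum (g17120) at 8024 was the highest. What part these cell types have in the values of those eels was not tested. Without silver eel 5, 0 members passed an adjusted p of 0.05 between the stages in edgeR, 2 had an unadjusted p under 0.05, and 46 of 53 were lower in silver eels, where the median log2 difference was -0.36.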

How the data were processed

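RNA-seq counts of 11 rete mirabile libraries, 1 per eel, were used. The authors aligned reads to a draft eel genome with TopHat2 (2.0.13), removed secondary alignments with SAMtools (1.2), counted reads per predicted gene with HTSeq (0.6.1p1) and deposited raw counts for 45974 transcripts, per the labels and the study's methods. The base mean signal columns in the deposited table were recomputed, and the largest relative difference from the mean of the yellow eels used here was 0.000107. Columns with the authors' fold changes and p-values were not used. The table heads 1 yellow eel column with a set number that differs in 1 digit from the titles, and it was read as the FG1835 library of the same ending. Groups came from the developmental stage label.

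For relative expression values, each count was divided by its library's median-of-ratios size factor. Stages were compared with edgeR 4.0.16 (TMM, filterByExpr, quasi-likelihood test) on 23981 transcripts, R 4.3.3, with Benjamini-Hochberg adjustment over all of them, and library sets with stage in the model. DESeq2 1.42.0, limma 3.58.1, other scalings and filters, each set or stage alone and each eel left out in turn were alternatives. The fits were also run on simulated counts with planted changes. The counts simulated for the stage test held no difference between the sets, so that run does not check the stage test where the sets differ. Named were the transcript of highest mean of each name above 50 (19) and further members above 50 with an unadjusted p under 0.05 between stages or an adjusted p under 0.05 between sets (16), of which 1 is not reported here. Members and gene lists were chosen with earlier results of these data known. Depth, as assigned counts, was 9360429 to 12438185 per library. The p-values measure the spread between libraries of different eels. For the main stage test, which has no set term, that spread includes any difference between the sets.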

Additional observations from a re-analysis of the deposited data

Results flagged for a closer look

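Of 78 groups of eels tested, 8 held 1 eel far from the others of its stage, and chance flags about 1 in 20 independent groups. These groups are not independent, since they share the same eels and the ratios reuse the same transcripts. The count can therefore not be set against that rate. Silver eel 6 was set apart in 6 of them. Its relative expression values lay far above the other silver eels for lamb1 (g2333) at 13267, lama1 (g1501) at 94.0 and agrin (g18195) at 168, and far below them for nid2 (g4703) at 3910.3. Its lamb1/lamb2 ratio of 3.54 and its nid1/nid2 ratio of 0.228 were the highest of the silver eels. Silver eel 5 had a lama4/lama5 ratio of 7.52, far above the other silver eels. Among yellow eels, yellow eel 1 lay apart in lama3 (g14032) at 4364.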

How the results depend on the processing

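No paired analysis was possible because replicate numbers follow accession order and only name the eels. The count of members called between the stages was 0 in edgeR, DESeq2 and limma and under every other alternative run. At an unadjusted p under 0.01 it was 2 in DESeq2, 2 with the set as a term and 5 of 55 in FG1835 alone (9.09%, against 1.82% of all transcripts; 0 to 2 with 1 eel left out, 1 in the test with all eels), and at an unadjusted p under 0.05 it was 19 of 55 in FG1835 alone (34.5%, against 7.3% of all; 2 to 8 with 1 eel left out). Many of the 19 shared the names nid1 or pgbm, so they need not be independent. The share of members lower in silver eels was 41.8% in FG1907 alone (72.7 to 92.5 with 1 eel left out). Over all transcripts 25 passed an adjusted p of 0.05 in DESeq2 (0 to 1 in edgeR with 1 eel left out). Between the sets, the members called were 3 in silver eels alone (2 higher, 1 lower) and 12 in yellow eels alone (3 higher, 9 lower), and with 1 eel left out 17 to 24 (5 to 9 higher, 12 to 15 lower). Fewer eels enter the fits of 1 set or 1 stage.

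Silver minus yellow turned round on the log2 scale with the set as a term for agrin (g18195, -0.0036), lamb4 (g16134, 0.0085), co4a1 (g14783, -0.0024), co4a2 (g12003, -0.092), lamc1 (g3905, 0.034) and nid1 (g23490, -0.13, and -0.042 in limma). It turned in FG1907 alone for lamb4 (g16134, 0.65), sprc (g763, 0.20), lama5 (g14033, 0.54), lama5 (g31004, 0.39), lamc1 (g3905, 1.2), nid1 (g30910, 0.30), pgbm (g7473, 0.57), pgbm (g16365, 0.30) and pgbm (g25231, 0.088). It turned in FG1835 alone for agrin (g18195, -0.12), lamb1 (g2333, -0.29), nid1 (g31452, -0.094), nid2 (g4703, 0.18), co4a1 (g14783, -0.78), co4a2 (g12003, -0.76), nid1 (g23490, -0.49) and nid1 (g42839, -0.20). FG1907 minus FG1835 turned for lama2 (g2095) in limma (-0.25), with the limit of 50 as the filter (-0.033) and in silver eels alone (-0.11), for lama5 (g9955) in DESeq2 (0.0088) and with no filter (0.012), for lamb1 (g2333) in yellow eels alone (-0.038) and for nid2 (g4703) in limma (-0.038) and in silver eels alone (-0.37). None of these was called. With 1 eel left out, silver minus yellow ranged across 0 for agrin (g18195, -0.30 to 0.46), lama2 (g2095, -0.62 to 0.027), lama4 (g11257, -0.21 to 0.051), lamb1 (g2333, -0.23 to 0.40), lamb4 (g16134, -0.46 to 0.046), nid1 (g31452, -0.11 to 0.61), co4a1 (g14783, -0.11 to 0.64), co4a2 (g12003, -0.17 to 0.56), nid1 (g23490, -0.12 to 0.27), nid1 (g42839, -0.038 to 0.40) and nid1 (g30910, -0.56 to 0.16), and FG1907 minus FG1835 for lama2 (g2095, -0.65 to 0.34) and lama5 (g9955, -0.18 to 0.24).

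With 1 eel left out, the stage differences of the ratios ranged from -0.18 to 0.0077 for co4a1/co4a2, from 0.068 to 0.68 for lama4/lama5, from 0.14 to 0.62 for lamb1/lamb2 and from -0.088 to 0.77 for nid1/nid2, and the set differences from 0.21 to 0.33, 0.36 to 1.07, 0.38 to 0.91 and 0.90 to 1.73 in the same order. With all transcripts of a name summed, the set differences of co4a1/co4a2 and nid1/nid2 were 0.045 and 0.65 (exact permutation test, adjusted p = 0.786 and 0.395), and that of co4a1/co4a2 was 0.29 with eels permuted within stages (exact permutation test, adjusted p = 0.06). The cause of these changes was not tested.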
